A study of Drosophila melanogaster with 6 samples.

Results

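The genes described here are zygotic patterning genes of the Drosophila embryo: gap, pair-rule and segment polarity genes, the dorsoventral genes, and a small set used at cellularisation and in counting X chromosomes. They were chosen by name from a list of 34 symbols, of which 33 matched a gene of the deposited table, out of 14737 genes in all. The gene h is listed as hry in the reference table, and wg is not analysed here. RNA came from whole-embryo lysates of OreR, the wild-type strain Oregon-R, and of embryos carrying the caperCC01391 allele of caper, whose protein binds RNA and takes part in splicing. Each genotype had 3 biological replicates, with no treatment, collected on apple juice plates with yeast and sequenced in a single lane. Neither embryo age nor zygosity is given in the sources used here. All mutant libraries come from the caperCC01391 strain, so allele and strain background cannot be told apart. caper itself is not analysed here, so the labels were not checked through it.

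Segmentation proceeds as a cascade. Gap genes divide the anterior-posterior axis into broad domains, pair-rule genes turn these into stripes, and segment polarity genes hold the boundaries of each segment through later development. Along the dorsoventral axis, Twist and Snail specify mesoderm on the ventral side, and a gradient of BMP ligands shaped by Sog, Tsg and Tld patterns the dorsal side. Most of these genes are first switched on when the embryo takes over transcription from the mother. Segment polarity genes act later as well, and in the other groups later expression was not separated from early expression here. RNA of the set therefore does not mark early stages of an egg collection alone. The stage from which a member's RNA came was not tested.

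Gene counts, the counts per gene recovered from the table, totalled 34815930 to 42956396 per library, and the members held 64 to 13194 counts in a library. All 33 passed the filter on low counts in the test across all genes. Levels are given in CPM, the gene count relative to library size, scaled with the TMM factors of edgeR. Lists of other stages are given beside the 46.9% of all genes tested that changed, 26.4% upward and 20.6% downward. Of 13 maternal transcripts tested, 7 rose and 1 fell in the mutant (median log2 fold change 0.83). bcd, the anterior determinant, rose, at 59.5 ± 15.5 CPM in OreR, beside 177 ± 26.8 CPM in the mutant (SD, n = 3). The list was split: Hsp83 fell (log2 fold change -0.27), and osk (-0.26), gcl (-0.22), exu (-0.16), pgc (0.22) and swa (0.54) did not pass. Among genes of the late embryo, 6 of 14 cuticle genes fell and 1 rose (median -0.78), 6 of 10 muscle genes fell (-0.75) and 4 of 8 neuron genes fell (-0.58). Chorion genes of the adult ovary summed to 0.464 to 1.04 CPM per library, and testis genes to 9.74 to 12.6 CPM, of which mia alone held 8.67 to 11.8 CPM. In bulk embryos, fewer cells expressing a gene and less RNA per cell cannot be told apart.

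Most of the patterning genes lay at like levels in both genotypes. In the test across all genes (edgeR quasi-likelihood, Benjamini-Hochberg adjusted p below 0.05), 4 of the 33 changed: slam and sisA rose, and tld and en fell. Of all 10251 genes tested, 46.9% changed. Among the 7421 genes whose mean level lay within the range of the members, from 2.82 to 231 CPM, 48.3% changed. The median absolute log2 fold change was 0.12 over the members and 0.41 over all genes tested, and the median log2 fold change was -0.04 against -0.07. The median standard error was 0.11 for the members and 0.14 for all genes. A log2 fold change of at least 0.5 in either direction was seen in 3 members and in 42.7% of all genes. For 30 of the 33 members the 95% interval of the fold change lay within 2-fold either way, and for 26 within 1.5-fold. The 3 OreR and 3 mutant values did not overlap for 9 members (mutant higher for 2, lower for 7), against 60.4% of all genes tested. With upper quartile scaling, which moved the median of all genes from -0.07 to -0.23, 1 member rose and 8 fell, and 56.9% of all genes changed.

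**Figure D1:**
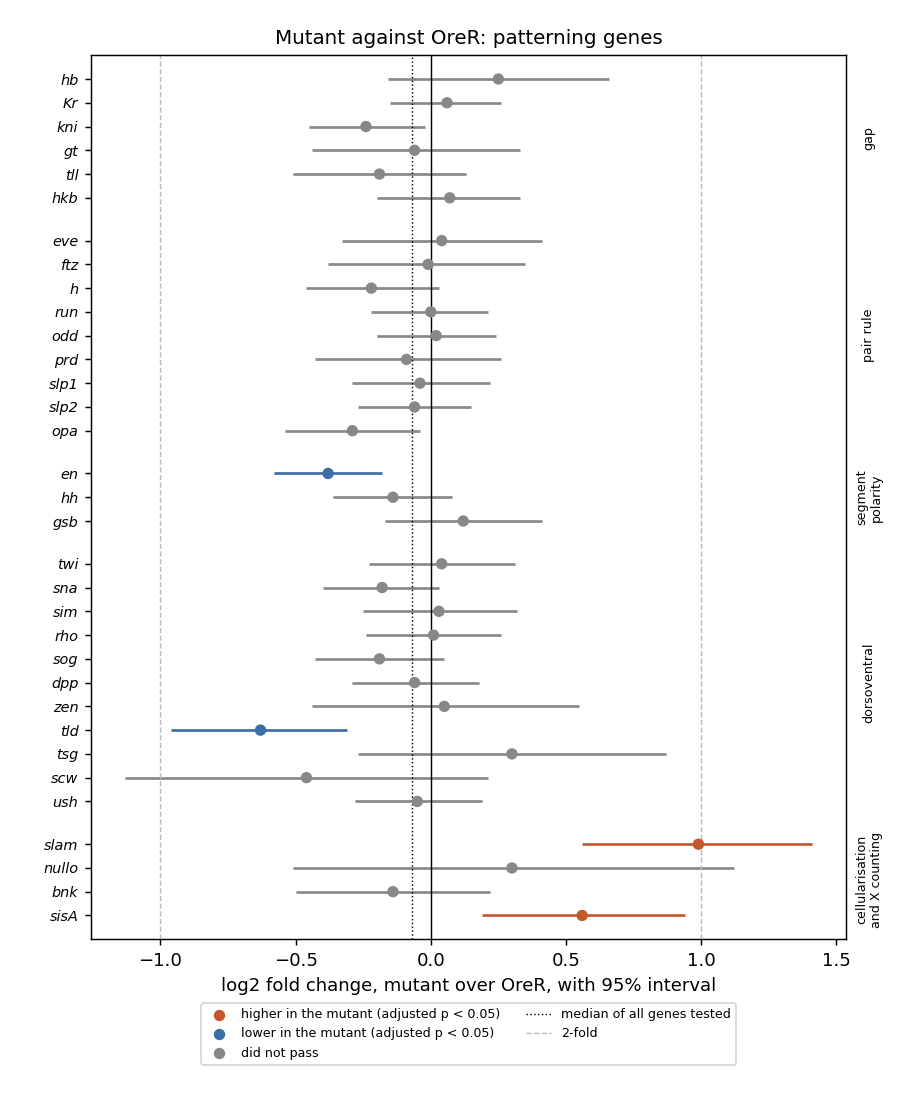
Log2 fold change of mutant over OreR (horizontal axis) for the 33 patterning genes, by role, with the 95% interval as a line. The 4 genes past the threshold are coloured, most of the others lie near 0, and the dotted line marks the median of all genes tested, -0.07.

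The gap genes encode transcription factors that read the maternal gradients. None of the 6 passed the edgeR test, against 46.9% of all genes tested. At an unadjusted p below 0.05 there was 1, kni, but the share of all genes below that value was not counted. DESeq2 also called 0, against 49.6% of all genes. hb, a zinc finger factor with both a maternal and a zygotic transcript, had 112, 71.8 and 114 CPM in OreR replicates 1 to 3 and 107, 122 and 125 CPM in mutant replicates 1 to 3. Only OreR replicate 2 stood apart, and the genotypes overlapped (log2 fold change 0.25 ± 0.18 SE, adjusted p = 0.27). kni, which encodes a nuclear receptor-type factor of the abdomen, had 50.6, 55.5 and 53.0 CPM in OreR and 48.2, 41.4 and 45.2 CPM in the mutant. All mutant values lay below all OreR values, yet the difference of -0.24 ± 0.09 missed the threshold (adjusted p = 0.067). Kr, the zinc finger factor of the central domain, lay at 63.4 ± 4.15 CPM in OreR, beside 65.9 ± 3.20 CPM in the mutant (SD, n = 3), and its 95% interval ran from -0.15 to 0.26. The bZIP gene gt and the terminal genes tll and hkb lay between 12.8 and 18.5 CPM in every library, with overlapping genotypes.

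Pair-rule genes, which set up the stripes, likewise gave no call in 9 tested with edgeR, against 46.9% of all genes tested. There was 1 at an unadjusted p below 0.05, opa. DESeq2 called 0, against 49.6% of all genes. The homeobox gene eve had 10.98, 9.53 and 8.98 CPM in OreR and 11.9, 9.42 and 8.98 CPM in the mutant, so the genotypes overlapped. Exons of eve and of prd overlap those of antisense RNA genes in the BDGP6 annotation, and the strand setting of the counting is not stated, so their counts are uncertain. ftz, also a homeobox gene, had 14.6, 10.1 and 13.1 CPM in OreR and 12.7, 11.9 and 12.7 CPM in the mutant. run, which encodes a Runt-domain factor, had a mean of 35.3 ± 1.27 CPM in OreR, beside 35.2 ± 2.40 CPM in the mutant (SD, n = 3), with an interval from -0.22 to 0.21. The zinc finger gene odd lay at 42.9 ± 2.57 and 43.6 ± 3.01 CPM, and the Pax gene prd at 7.92 ± 0.84 and 7.44 ± 0.64 CPM. slp1 and slp2, neighbouring forkhead genes with overlapping functions, had log2 fold changes of -0.04 ± 0.11 and -0.06 ± 0.09. Per kb of exonic length, slp1 lay at 34.8 CPM in OreR and slp2 at 18.3 CPM. The Hes-family repressor gene h and the Zic-family gene opa were the pair-rule genes whose genotypes did not overlap. opa had 44.8, 49.1 and 43.1 CPM in OreR and 40.6, 33.4 and 38.2 CPM in the mutant (log2 fold change -0.29 ± 0.11, adjusted p = 0.058). h differed by -0.22 ± 0.10 (adjusted p = 0.12).

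en was the segment polarity gene that changed, 1 of 3 tested (33.3%, against 46.9% of all genes). It encodes the homeodomain factor of the posterior compartment. Its level was 54.7, 58.3 and 57.3 CPM in OreR replicates 1 to 3 and 45.9, 41.1 and 43.9 CPM in mutant replicates 1 to 3. Every mutant library lay below every OreR library, a fall of 1.30-fold (log2 fold change -0.38 ± 0.08, adjusted p = 0.0088 in edgeR). Without mutant replicate 2 the adjusted p was 0.054, and the difference was -0.34. hh, the ligand expressed in the same cells as en, had 23.4, 24.5 and 24.2 CPM in OreR and 22.5, 21.2 and 21.7 CPM in the mutant. These values did not overlap, but the difference of -0.14 ± 0.09 did not pass (adjusted p = 0.25). The Pax gene gsb had 28.7 ± 3.44 CPM in OreR, beside 31.2 ± 2.83 CPM in the mutant (SD, n = 3), with overlapping genotypes.

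**Figure D2:**
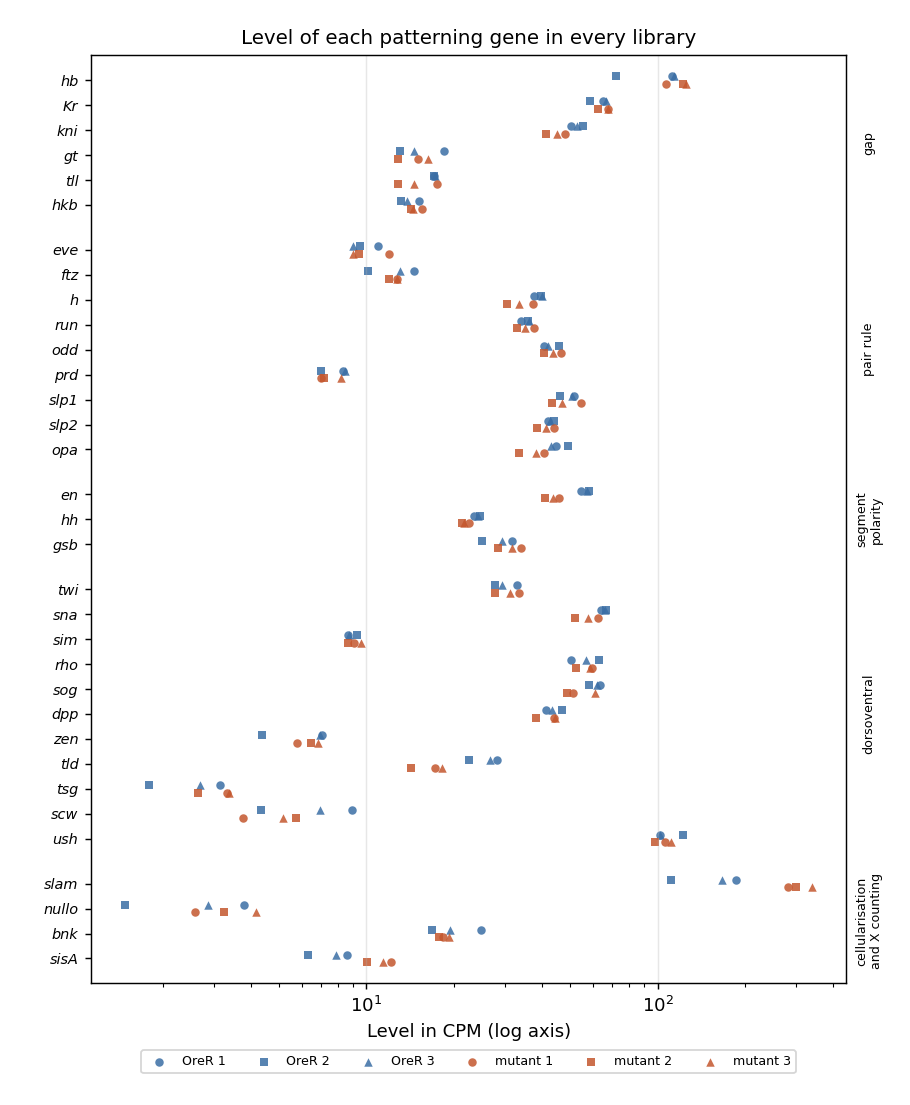
Level of each patterning gene in CPM on a log axis, with 1 point per library (blue OreR, red mutant, marker shape for the replicate number). For slam and sisA the mutant points lie to the right of all OreR points, and for tld and en to the left.

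On the ventral side, the bHLH gene twi and the zinc finger gene sna specify mesoderm. twi lay at 29.9 ± 2.68 CPM in OreR, beside 30.7 ± 2.85 CPM in the mutant (SD, n = 3), although exons of twi overlap those of CG9897 and an antisense RNA gene in the BDGP6 annotation, so its counts are uncertain. sna had 63.7, 66.4 and 65.9 CPM in OreR and 62.7, 52.2 and 57.7 CPM in the mutant. The mutant values were all lower, with a difference of -0.18 ± 0.09 that did not pass (adjusted p = 0.13). Neither sim nor rho gave a call. sim, the bHLH-PAS gene of the ventral midline, lay at 8.64 to 9.54 CPM in the 6 libraries and rho, which encodes a protease that releases EGF receptor ligands, at 50.5 to 62.8 CPM.

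Dorsal patterning rests on the ligands Dpp and Scw, on Sog and Tsg, which bind them, and on Tld, a metalloprotease that cleaves Sog. Of these, tld fell. Its level was 28.2, 22.5 and 26.6 CPM in OreR replicates 1 to 3 and 17.2, 14.3 and 18.2 CPM in mutant replicates 1 to 3. All mutant libraries lay below the lowest OreR library, a fall of 1.55-fold (log2 fold change -0.63 ± 0.14, adjusted p = 0.0088 in edgeR). The call held with each library left out, at -0.72 to -0.53. sog had 63.3, 58.2 and 62.1 CPM in OreR and 51.2, 48.8 and 60.8 CPM in the mutant, where mutant replicate 3 overlapped OreR (log2 fold change -0.19 ± 0.10, adjusted p = 0.17). Counted on splice junctions alone, sog fell (-0.51, adjusted p = 0.018). dpp lay at 43.9 ± 2.80 CPM in OreR, beside 42.2 ± 3.55 CPM in the mutant (SD, n = 3). scw varied most within OreR among these ligands and their partners, with 8.90, 4.34 and 6.95 CPM, against 3.76, 5.71 and 5.17 CPM in the mutant. Its difference of -0.46 ± 0.29 had an adjusted p of 0.21, and of 0.048 without OreR replicate 2 (-0.70). tsg lay between 1.78 and 3.37 CPM with overlapping genotypes. Downstream of the gradient, the homeobox gene zen had 7.05, 4.36 and 6.92 CPM in OreR and 5.77, 6.44 and 6.82 CPM in the mutant. ush, which encodes a Friend-of-GATA cofactor of the dorsal ectoderm, lay at 109 ± 11.98 and 105 ± 6.93 CPM (SD, n = 3).

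Both increases lay among the genes of cellularisation and X counting, where 2 of 4 changed. That is 50%, near the 46.9% of all genes tested that changed (26.4% higher). slam, needed for growth of the membrane furrows that separate the first cells, had 186, 112 and 166 CPM in OreR replicates 1 to 3 and 281, 299 and 339 CPM in mutant replicates 1 to 3. The lowest mutant library was well above the highest OreR library, a rise of 1.98-fold (log2 fold change 0.99 ± 0.18, adjusted p = 0.0041 in edgeR). slam had the highest level per kb of exonic length among the members in the mutant, 74.5 CPM, and sna the highest in OreR, 39.2 CPM. As a share of the summed CPM of the 33 genes, a ratio within each library that no scaling changes, slam made up 14.3%, 9.40% and 13.0% in OreR and 20.4%, 23.2% and 23.7% in the mutant. The other 32 genes summed to 1119, 1076 and 1117 CPM in OreR and 1096, 990 and 1090 CPM in the mutant, ranges that overlap.

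sisA encodes a bZIP protein by which embryos count their X chromosomes and switch on Sex-lethal. Its level was 8.59, 6.31 and 7.87 CPM in OreR and 12.1, 10.03 and 11.4 CPM in the mutant. The genotypes did not overlap, and the rise was 1.48-fold (log2 fold change 0.56 ± 0.16, adjusted p = 0.025 in edgeR). That call was less firm than the one for slam. The adjusted p was 0.057 without mutant replicate 1, 0.062 without mutant replicate 3 and 0.061 with upper quartile scaling. nullo and bnk, which act in the actin network of the furrows, showed no call. nullo had 3.78, 1.48 and 2.85 CPM in OreR and 2.59, 3.25 and 4.17 CPM in the mutant, and its wide interval, from -0.51 to 1.12, does not exclude a change of 2-fold. bnk had 24.7, 16.9 and 19.4 CPM in OreR and 18.3, 17.7 and 19.2 CPM in the mutant.

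**Figure D3:**
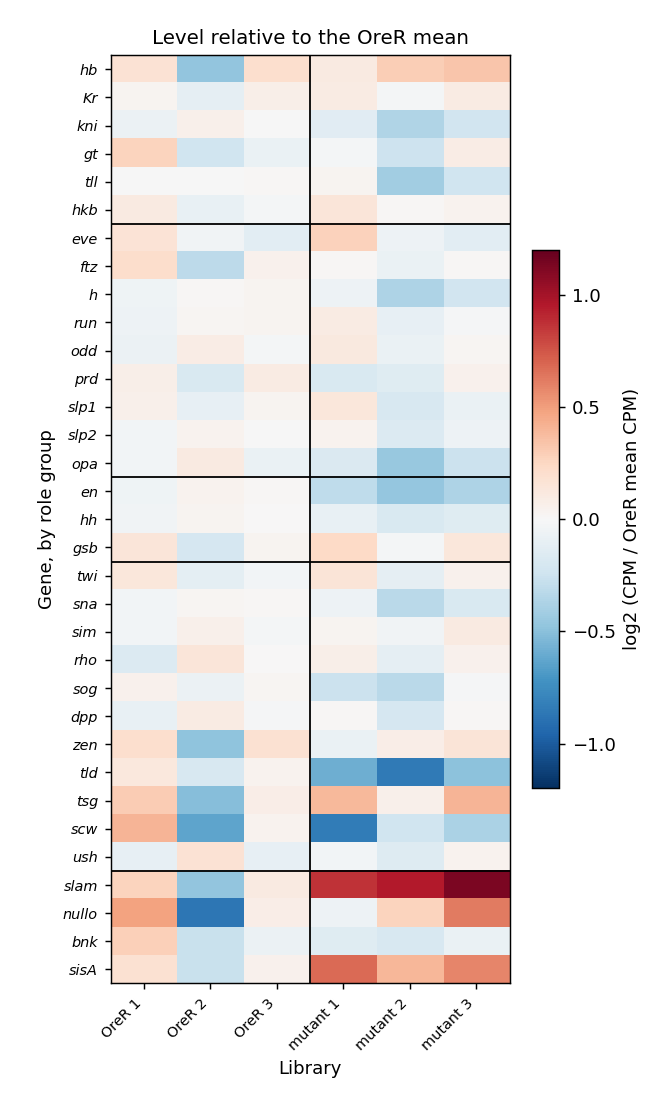
Level of each patterning gene in each library (columns) relative to its OreR mean, as log2 of the CPM ratio (colour scale), with lines between role groups and between the genotypes. OreR replicate 2 is blue for hb, zen, scw, slam and nullo, and slam is red in all mutant libraries.

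Within genotypes, single libraries differed from their partners across many of these genes. In OreR, replicate 2 had the lowest value of the 3 for 18 of the 33 members, and the highest for 11. Such ranks were not counted over all genes tested. It was lowest for 4 of 4 genes of cellularisation and X counting, where its median log2 difference from the mean of the other OreR libraries was -0.52, and for nullo -1.16. The gap gene hb (-0.66) and the dorsal genes scw (-0.87), tsg (-0.71) and zen (-0.68) were also low in that library. By contrast, ush (0.27), rho (0.23), opa (0.16), dpp (0.15) and odd (0.14) were higher there than in the mean of its partners. The same library had the lowest mean level of maternal transcripts in OreR, -0.41 on the log2 scale relative to the OreR mean against 0.17 and 0.24, and the highest of muscle and neuron genes, 0.22 and 0.27. For cuticle genes OreR replicate 1 was highest, at 0.28, and replicate 2 lay at 0.09. The part of these lists in the members' values was not tested.

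Among the mutant libraries, replicate 2 had the lowest value for 26 of the 33 members and replicate 1 the highest for 18. This was not particular to the members. Replicate 2 was also lowest for 13 of 17 other mesoderm and ventral genes and 10 of 14 other dorsal genes. For other pair-rule partners it was lowest for 2 of 5. The differences were small, with a median of -0.15 for replicate 2 against the mean of its partners. For pair-rule genes, replicate 2 was lowest for 7 of 9, and for dorsoventral genes for 9 of 11. Mutant replicate 2 had the highest mean of the maternal list, 0.83 against 0.50 and 0.79, but did not lie at the end of the mutant range in muscle genes, where the mean levels were -0.39, -0.65 and -1.26 in mutant replicates 1 to 3.

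**Figure D4:**
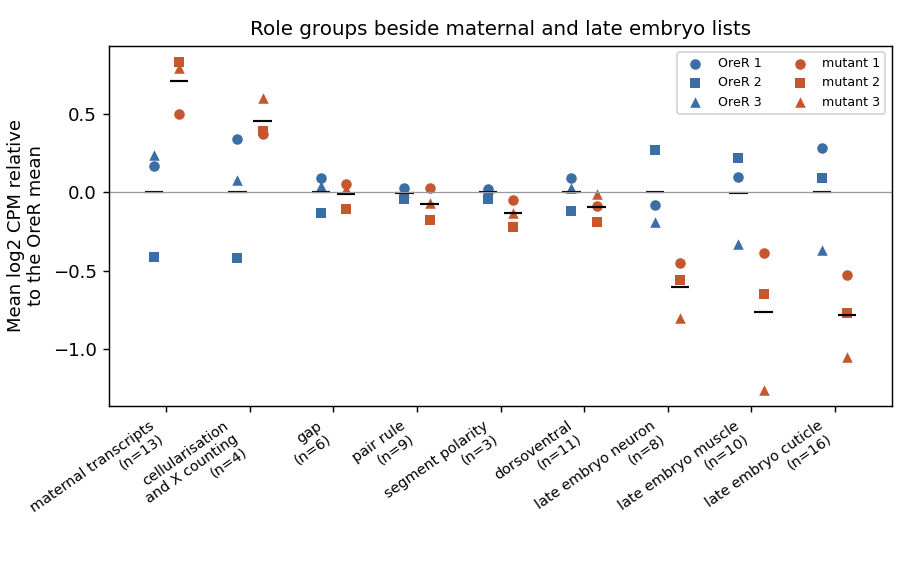
Mean log2 CPM of each list relative to the OreR mean (vertical axis), with 1 point per library and a bar at the genotype mean. The gap, pair-rule, segment polarity and dorsoventral groups lie within -0.22 to 0.09 in every library. The maternal list is higher in all mutant libraries than in any OreR library, and the late embryo lists are lower.

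The mean level of each role group, relative to OreR, put these differences beside the other stages. Gap genes lay at 0.09, -0.13 and 0.04 in OreR replicates 1 to 3 and at 0.05, -0.11 and 0.02 in mutant replicates 1 to 3. The 4 genes of cellularisation and X counting lay at 0.34, -0.42 and 0.08 in OreR and at 0.37, 0.39 and 0.60 in the mutant, so only mutant values reached above 0.34. Maternal transcripts, at 0.17, -0.41 and 0.24 in OreR and 0.50, 0.83 and 0.79 in the mutant, separated the genotypes more widely. slam and sisA moved in the same direction as the mean of the maternal list, so these values stand beside their rise. en and tld moved in the same direction as the late embryo lists. The median log2 fold changes of those lists were -0.78 for cuticle, -0.75 for muscle and -0.58 for neuron genes. The part of embryo age in the rises and falls of the members was not tested.

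Other genes of the same pathways held more calls, most of them downward. Of 64 further patterning genes in 6 lists, all tested, 4 rose and 14 fell (28.1%, against 46.9% of all genes; median log2 fold change -0.14). The number of decreases depended on the setting: it was 32 with upper quartile scaling, 9 with RLE scaling, DESeq2 or the replicate block, and 8 with no filter. Without mutant replicate 2 the 18 calls became 8, and without OreR replicate 3 they became 11. Among 12 other gap and head genes, the POU gene nub (-0.28) and the bZIP gene cnc (-0.22) fell. Their adjusted p in edgeR was 0.018 and 0.048, and DESeq2 called 1 of the 12. Of the 5 genes listed as other pair-rule partners, 1 was called, ken, at -0.82 ± 0.23. A pair-rule role of ken was not tested. Of 10 other segment polarity genes, the Hedgehog transducer gene smo rose 1.62-fold (adjusted p = 0.0045 in edgeR), and inv and the T-box gene H15 fell by 0.52 and 0.59 on the log2 scale.

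Decreases were most numerous in mesoderm and ventral genes, where 6 of 17 changed, all downward (35.3%, against 46.9% of all genes changed and 20.6% lower). DESeq2 called 4 of the 17. They included fog, the secreted ligand of apical constriction at gastrulation, with 113, 99.96 and 113 CPM in OreR and 50.2, 69.0 and 71.8 CPM in the mutant (log2 fold change -0.77 ± 0.14, adjusted p = 0.004). The others with the smallest p were the netrin genes NetA and NetB, which guide axons later in development, at -1.03 ± 0.11 and -0.55 ± 0.11. Of 14 other genes of the dorsal ectoderm and amnioserosa, 2 rose and 3 fell. The BMP receptor gene sax rose 1.41-fold and the T-box gene Doc2 1.24-fold, whereas tok, peb and Egfr fell by 0.65, 0.29 and 0.27 on the log2 scale. Doc2, peb and Egfr lay near the threshold, with adjusted p of 0.038, 0.035 and 0.04 in edgeR. DESeq2 called 3 of the 14. Among 6 other genes of cellularisation and X counting, 1 changed: zld, which encodes the pioneer factor Zelda and is also supplied maternally. It rose from 342 ± 35.2 to 727 ± 130 CPM (SD, n = 3). Its log2 fold change was 1.09 ± 0.14 (adjusted p = 0.001 in edgeR). Sry-alpha (-0.12), upd1 (-0.01), dpn (0.05), sc (0.16) and halo (0.39) did not pass.

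Related pairs of genes gave values that could be set side by side; the pairs were chosen after their values were seen. tld and its relative tok, which also encodes a Tolloid-type metalloprotease, both fell, tok from 73.7, 81.4 and 75.2 CPM in OreR to 48.7, 47.8 and 50.4 CPM in the mutant. en and its neighbour and paralogue inv both fell, inv from 30.7, 36.4 and 30.7 CPM to 25.1, 19.8 and 23.5 CPM. Neither kni nor knrl passed, with log2 fold changes of -0.24 and -0.21, nor did odd and its paralogue sob, with 0.02 and -0.30. gsb and gsb-n had 0.12 and 0.08, and zen and zen2 had 0.05 and -0.22, without a call. Whether reads of the paralogues were shared was not tested.

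Splicing within the patterning genes was compared through the shares of exonic bins and splice junctions in the gene count. Many of these genes are short: 8 of the 33 had no annotated junction, among them sna, slp1, slp2, sisA and nullo, and could not be tested. Of the 25 tested with the diffSpliceDGE function of edgeR, 1 passed at the gene level, ush, against 6.04% of all 8510 genes tested (Simes p per gene, Benjamini-Hochberg adjusted). Over single bins and junctions the share called was 1.82% across the table. Only 1 bin of the members passed, ush bin E002, in the numbering of the deposited table.

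ush bin E002 held 36, 48 and 38 counts in OreR replicates 1 to 3 and 102, 73 and 120 counts in mutant replicates 1 to 3. As a percent of the ush gene count this was 0.912%, 0.909% and 1.01% in OreR and 2.30%, 2.16% and 2.77% in the mutant, with no overlap (adjusted p = 4.9e-05 for the bin and 0.00018 for the gene in edgeR). Junction J014 moved alongside it, with 3, 5 and 4 counts in OreR and 11, 10 and 19 counts in the mutant, but fell under the filter on low counts and was not tested. No other tested bin of ush passed. The neighbouring bin E001 took 0.333 ± 0.13% in OreR and 0.586 ± 0.15% in the mutant (SD, n = 3), and did not pass in edgeR (adjusted p = 0.56). The largest bin, E010, took 38.2 ± 1.2% in OreR and 37.1 ± 0.18% in the mutant (SD, n = 3). Exons of ush overlap those of lncRNA:CR46258 on the same strand in the BDGP6 annotation, and that gene is no entry of the deposited table. Its part in the bin was not tested.

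**Figure D5:**
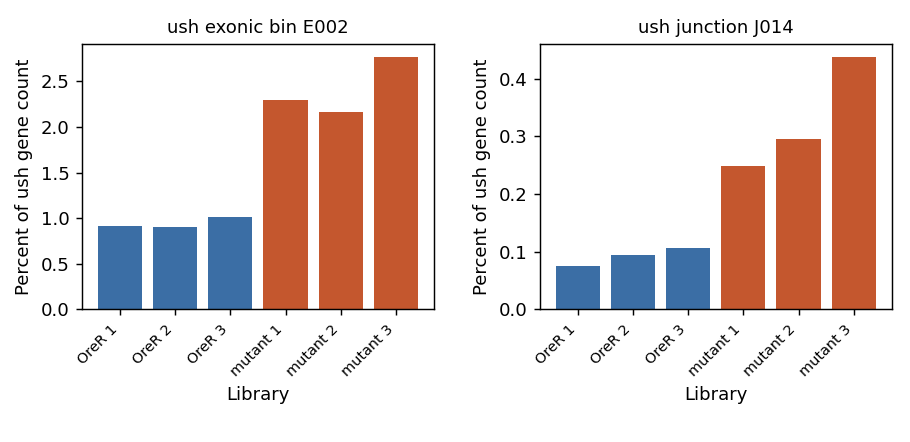
Share of the ush gene count taken by exonic bin E002 (left) and by junction J014 (right), in percent, with 1 bar per library starting at 0. The mutant bars stand at 2.16% to 2.77% for the bin and above all OreR bars in both panels.

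No junction of any member, ush included, passed the test of bins and junctions together. Among genes with a single annotated junction, that of eve took 19.4 ± 1.6% of the gene count in OreR and 16.7 ± 3.8% in the mutant, that of ftz 10.1 ± 2.8% and 9.94 ± 0.92%, that of Kr 5.74 ± 0.53% and 5.56 ± 0.95%, and that of zen 16.9 ± 3.2% and 16.0 ± 2.7% (SD, n = 3). These shares overlapped between the genotypes. The shares of the odd junction did not overlap, at 8.51%, 8.31% and 8.68% in OreR and 7.39%, 7% and 7.96% in the mutant, but did not pass in edgeR (adjusted p = 1). After ush the smallest adjusted p at the gene level was 0.59 in edgeR, for dpp. Its bin E001 took 1.44 ± 0.12% in OreR and 0.677 ± 0.26% in the mutant. sog followed with an adjusted p of 0.78 in edgeR, and had junction J016 at 2.71 ± 0.22% in OreR and 1.46 ± 0.17% in the mutant. The 3 OreR and 3 mutant shares of that junction did not overlap, but it did not pass (adjusted p = 0.20). Shares also stood apart without passing for tld junction J008, at 4.47%, 2.89% and 4.29% in OreR and 2.37%, 1.63% and 2.54% in the mutant (adjusted p = 0.77 in edgeR). For dpp junction J010 they were 1.62%, 1.48% and 2.25% in OreR and 0.759%, 1.14% and 1.28% in the mutant (adjusted p = 0.83 in edgeR). In slam, junction J004 had 91, 41 and 79 counts in OreR and 165, 201 and 305 in the mutant. Its share of 1.13 ± 0.24% and 1.89 ± 0.46% did not pass (adjusted p = 0.94 in edgeR). The bins and junctions of odd, dpp, sog, tld and slam given here were picked after their values were seen. How many of all bins and junctions did not overlap between the genotypes was not counted.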

How the data were processed

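Counts per exonic bin and splice junction, and counts of the rest of each gene, were deposited in 1 table for JunctionSeq, per the file headers. It also held these counts divided by a size factor of the library, a normalised signal deposited by the authors and not used for tests. The submitters' processing notes name GSNAP 2014-12-17, SAMtools and the builds BDGP5 and mm10, without roles. Annotation and strand setting of the counting are not given. A gene count was the smallest sum of both counts over the rows of a gene (1 sum for each member). Symbols and exonic lengths came from BDGP6 tables, and no coordinates are printed. The test across genes was the quasi-likelihood test of edgeR 4.0.16 under R 4.3.3, with filterByExpr, TMM scaling and genotype as the only term. Bins and junctions were tested with diffSpliceDGE, and p-values were adjusted by Benjamini-Hochberg over all tested. Standard errors were taken from the fold change and the F statistic. The scripts were tested on simulated data. For the test across genes, few genes changed in the simulation, as many up as down. It therefore did not test scaling where a large share of genes changes. Alternatives were RLE and upper quartile scaling, DESeq2 1.42.0, no filter, a replicate block, junction counts alone, the largest sum and leaving out each library. The members and lists were chosen with earlier results of these data known. All members are named. Of each other list, the calls named are at most the 3 higher and 3 lower with the smallest p. Some genes without a call are also named. Intervals and p-values rest on the spread between these libraries and on variability estimated across all genes tested. No sequences are printed.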

Additional observations from a re-analysis of the deposited data

How the results depend on the processing

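Of the 33 patterning genes, 4 changed with all libraries and 3 to 5 with 1 library left out (higher 1 to 2, lower 1 to 3). Upper quartile scaling gave 9, with 1 higher and 8 lower, the additional calls being kni, h, opa, hh, sna and sog, and sisA was lost. Junction counts alone, to be had for 25 members, gave 1 higher (slam; sisA has no junction) and 3 lower (tld, en and sog). RLE scaling, DESeq2, no filter, the replicate block and the largest sum each gave 4. No member's called direction reversed under any alternative run. The 18 calls among 64 other patterning genes became 35 with upper quartile scaling and 8 to 14 with 1 library left out, with mutant replicate 2 giving the lowest count. Decreases among these 64 genes, counted anew under each setting, were 14 in the main fit. They numbered 9 with RLE scaling, 9 with DESeq2, 8 with no filter and 9 with the replicate block. Upper quartile scaling gave 32, and leaving out 1 library gave 5 to 11. Increases numbered 3 to 4. The cause was not tested. Same-numbered libraries had correlations of 0.09, -0.01 and 0.60 in their deviations from the genotype means, so the numbers were not taken as pairs; with the replicate block 4 members and 13 other patterning genes changed. ush kept its call in usage under each alternative, with an adjusted p from 4.4e-05 to 0.0499, the latter on junctions alone. The widest intervals were those of nullo, scw and tsg.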
